A study of Mus musculus with 10 samples.

Results

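The genes described here are 10 named members of the canonical Wnt pathway, measured in the jejunum of mice lacking Klf9. They were taken by name through a rule that uses no values, but the list was drawn up with earlier results of these data known. Every probe set whose platform annotation gives 1 member symbol alone was taken, which gave 21 of 22690 probe sets and covered all 10 genes. A probe set is a group of short oligonucleotides on the array that together measure 1 transcript or a few transcripts of a gene. Tcf7l2 had 4 probe sets, Ctnnb1 and Apc 3 each, Axin2, Fzd7, Cd44 and Lrp6 a pair each, and Fzd5, Myc and Lrp5 had 1 each. Of the 21, 15 had a mean signal over all arrays above the 40th percentile of the platform (a signal of 123.5), and 6 lay under it and are called dim here.

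Klf9 encodes a Kruppel-like zinc finger transcription factor that binds GC-rich promoter elements. The samples were labelled as 5 arrays of jejunum from male Klf9-/- mice (KO) and 5 of jejunum from male wild type mice (WT). All were at postnatal day 30, with no further allele or agent labelled. The sources used here do not give the structure of the mutant allele. The series' design text gives 1 animal per array, while the labelling protocol speaks of RNA pools with several targets each, so p-values measure the spread between arrays, which may be in part technical. The study addressed proliferation in the crypts, the epithelial pits that hold stem and transit cells, and migration of cells onto the villi.

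In the canonical Wnt pathway a secreted Wnt ligand binds a Frizzled receptor and an Lrp5 or Lrp6 co-receptor at the cell surface. Without ligand, a destruction complex built on Apc and Axin proteins marks beta-catenin (Ctnnb1) for degradation. With ligand, beta-catenin reaches the nucleus and joins TCF and LEF factors, of which Tcf7l2 is the main one of the intestinal epithelium, to switch on targets such as Axin2, Myc and Cd44. The pathway maintains the crypt stem cells of the small intestine, and loss of Apc is a common first step of intestinal tumours. Much of its control acts on protein stability, which RNA levels do not show.

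The arrays had median scaled signals of 170.7 to 194 in KO and 179 to 194 in WT. They were washed on 4 fluidics modules: modules 1 and 2 held KO arrays only, module 3 WT arrays only and module 4 both. Genotype and module thus largely coincide and cannot be told apart in the differences below, those within wash runs included. Of the 12 listed enterocyte markers that check the labelled jejunum, 10 were on the array with a symbol of their own and all 10 were above the signal filter. Their mean was lower in KO for 8 and higher for 2, with a summed signal of 109718 to 161262 in KO and 110278 to 182523 in WT. The Klf9 transcript itself was not low on every array labelled KO. On its brightest probe set the signal was 944, 485, 339.6, 526 and 451 on KO replicates 1 to 5, against 551, 1319.8, 1038, 1249 and 964 on WT replicates 1 to 5. KO replicate 1 thus lay far above the other KO arrays and just below WT replicates 2 to 5. WT replicate 1 lay far below the other WT arrays and just above KO replicates 2 to 5. The title of KO replicate 1 gives KO, while 1 of its characteristics names both genotypes. This Klf9 set differed by -0.86 ± 0.25 (SE) on the log2 scale over all arrays (adjusted p = 0.464) and by -1.26 ± 0.15 without both arrays labelled replicate 1 (adjusted p = 0.0149). It was the only 1 of 7 Klf9 sets to pass there. These 2 arrays were singled out by their Klf9 values, so leaving them out parts the Klf9 groups by selection. The Klf9 values without them are therefore a description and no test of Klf9. The other bright Klf9 sets differed there by -1.11 ± 0.18 and -0.98 ± 0.17 (adjusted p = 0.062 and 0.115). The dim Klf9 sets lay between -0.38 and 0.08 there, with 1452723_at above 0. Where the deletion lies relative to the Klf9 probe sets is not known here, so this check rests on the probe sets that differ. Every direction below rests on the labels, and the difference of every member probe set is given with and without these 2 arrays.

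None of the 21 Wnt member probe sets passed the threshold of an adjusted p under 0.05 between KO and WT in limma, and neither did any of the 13585 probe sets tested (0% called, with 1073 or 7.9% at an unadjusted p under 0.05). The lowest adjusted p of a member was 0.436, for a dim probe set of Axin2. At an unadjusted p under 0.05 this was the only member, 1 of 21 and lower in KO, against 4.25% of all tested probe sets in that direction. It lies under the signal filter and was tested only because members were always kept. Of the 15 member probe sets over the filter, 0 had an unadjusted p under 0.05 in limma. Of the 21 probe sets, 17 had a log2 difference (KO minus WT, on the scale of signal plus 50) below 0 and 4 above 0, with a median of -0.15, while 51.4% of all tested probe sets lay below 0 and their median was -0.01. Among the 15 bright probe sets 12 lay below 0. Probe sets of 1 gene share their target, so these counts do not speak of 21 independent genes. With 1 probe set a gene, the brightest, 8 of 10 genes lay below 0, with a median of -0.12.

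**Figure D1:**
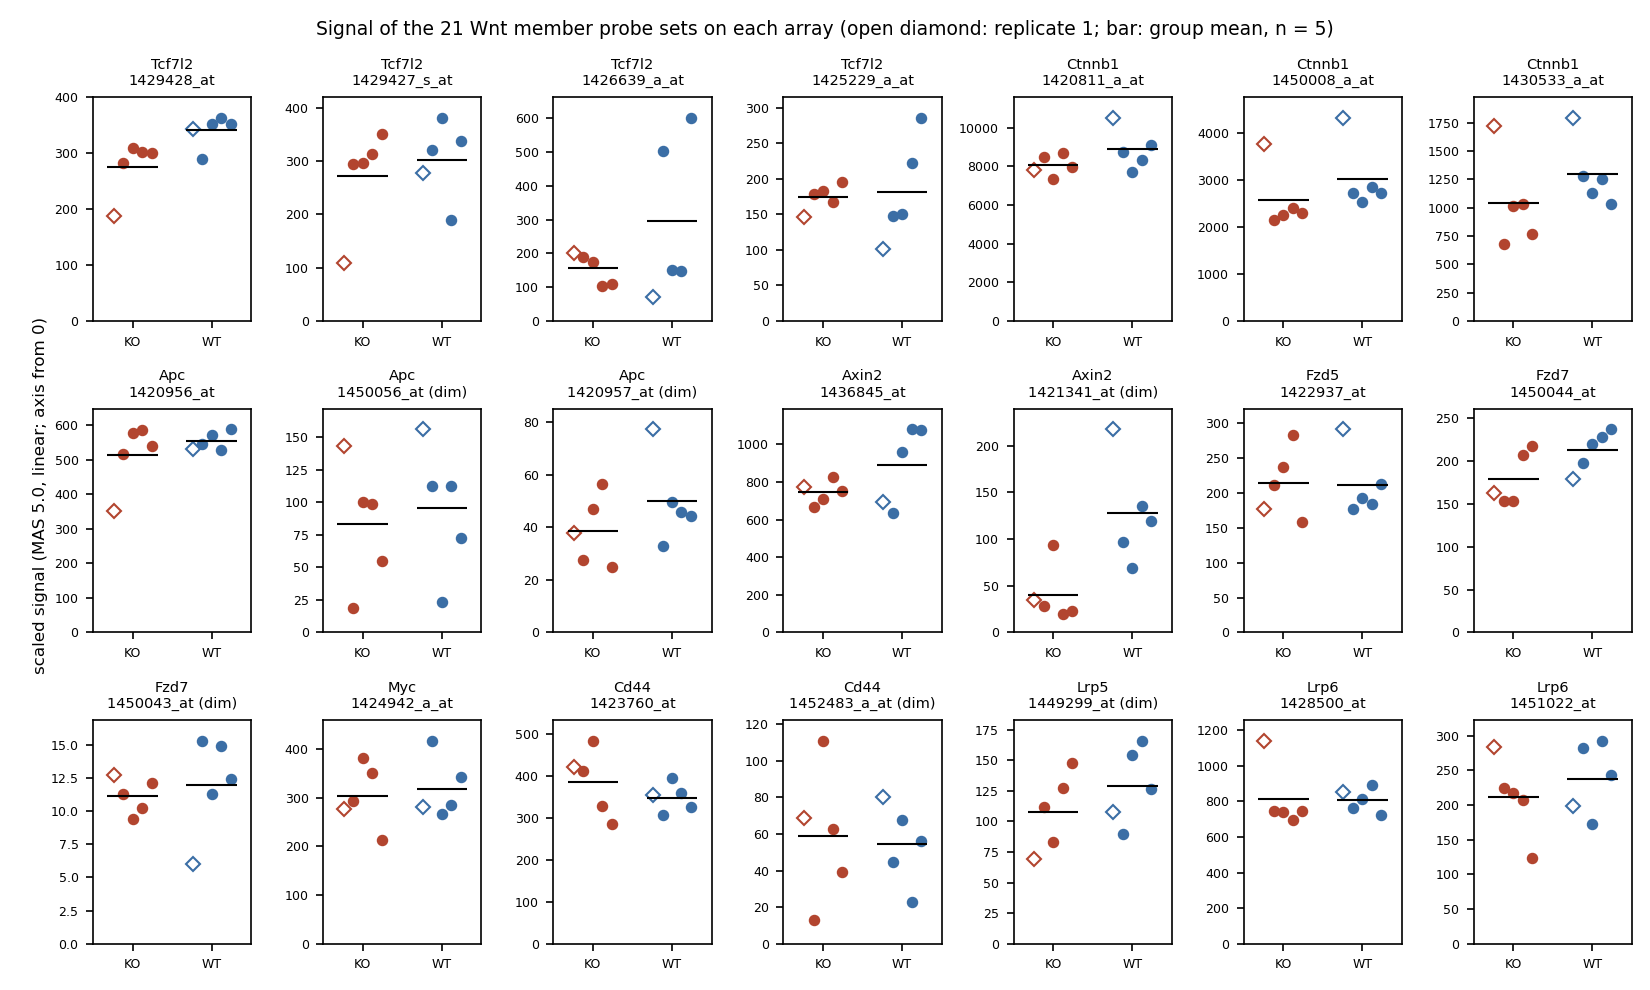
Scaled signal (vertical axis, linear and from 0) of each Wnt member probe set on the 5 KO and the 5 WT arrays, one panel a probe set, with replicate 1 of each group as an open diamond and the group mean as a bar. The groups overlap in every panel, and KO replicate 1 lies far below the other KO arrays for the first pair of Tcf7l2 probe sets and for the brightest of Apc.

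The differences between KO and WT were small against the spread between arrays for nearly all members. The largest on a bright probe set was -0.48 and the highest 0.12 on the log2 scale. In none of the 21 probe sets did the KO and WT arrays separate fully, where 1.55% of all tested probe sets had groups without overlap and 0.788% had every KO array lower. Without both arrays labelled replicate 1, again 17 probe sets lay below 0 (background 51.6%), and 4 of 21 had an unadjusted p under 0.05, all below 0, against 10.2% of all probe sets in either direction and 5.25% in that one. They were the dim Axin2 set, a pair of the 3 Ctnnb1 sets and 1 of the 4 Tcf7l2 sets. None of the 21 passed after adjustment there (lowest adjusted p = 0.331), while 9 of the 13585 did (0.0662%), among them 1 of the 7 Klf9 probe sets. Both arrays were left out for their Klf9 values, so the passing Klf9 set is no test of Klf9. In bulk tissue, fewer cells of a type and less RNA per cell cannot be told apart, which holds for all values here.

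**Figure D2:**
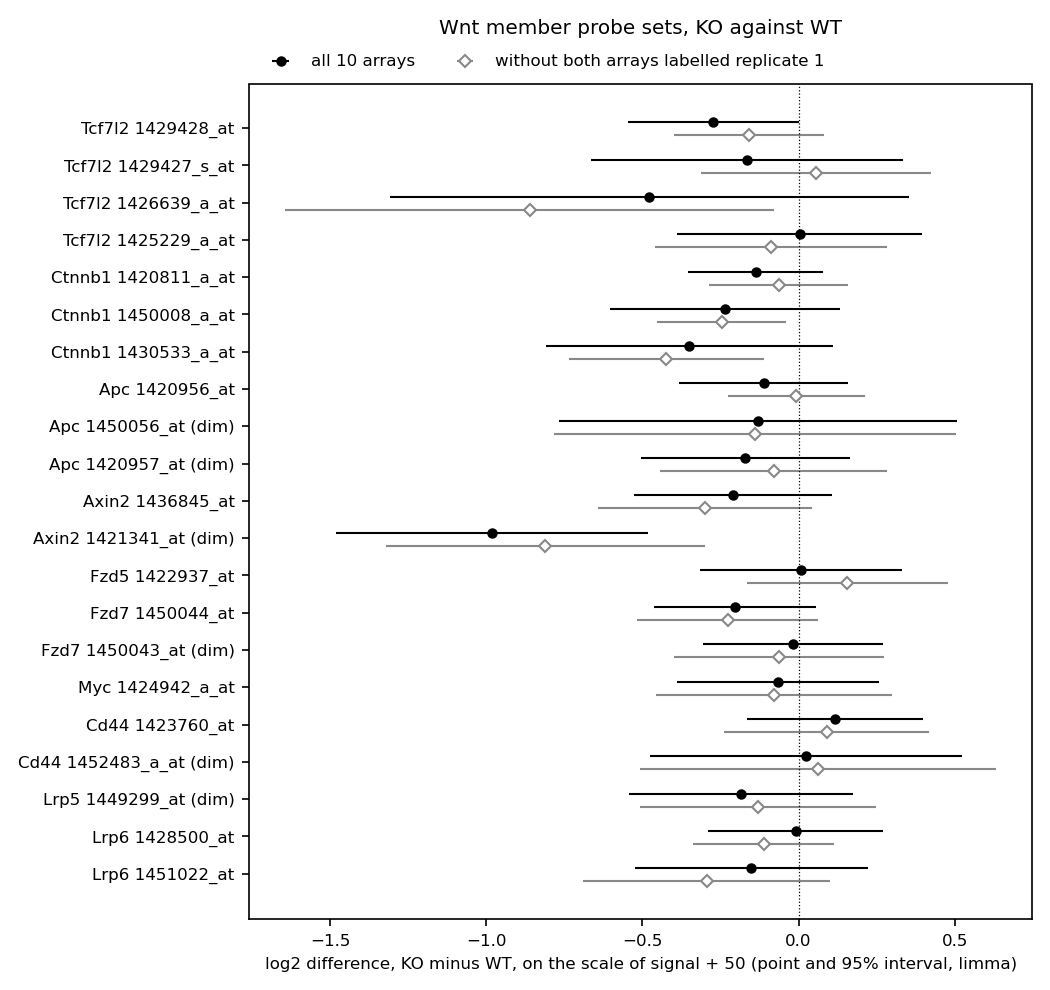
Log2 difference between KO and WT of each Wnt member probe set (horizontal axis, on the scale of signal plus 50, with the 95% interval of limma), over all 10 arrays (filled circles) and without both arrays labelled replicate 1 (open diamonds). Over all arrays only the interval of the dim Axin2 set, -1.48 to -0.48, lies wholly below 0.

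Fzd5 and Fzd7 encode Frizzled receptors, of which Fzd5 is known for its role in Paneth cell maturation and Fzd7 as a receptor of the Lgr5 stem cells. Fzd5 had a signal of 178, 212, 237, 283 and 159 in KO and 291, 177, 193, 184 and 212 in WT. The 2 groups covered nearly the same range, with a log2 difference of 0.01 ± 0.15 (SE, 95% interval -0.32 to 0.33, adjusted p = 0.995), and of 0.16 ± 0.15 without both arrays labelled replicate 1. On its bright probe set Fzd7 had 162, 154, 153, 207 and 218 in KO, against 179, 198, 219.7, 228 and 237 in WT. Of the 5 KO arrays 3 lay below every WT array, while KO replicates 4 and 5 lay inside the WT range. The difference of Fzd7 was -0.20 ± 0.12 (95% interval -0.46 to 0.05, exact two-sided permutation p = 0.0794, adjusted p = 0.696), and -0.23 ± 0.13 without both arrays labelled replicate 1. Within the 3 wash runs, which the recorded hybridization times tell apart, it was -0.20, -0.26 and -0.10. Run 3 held only replicate 5 of each group, run 1 replicates 1 and 2, and run 2 replicates 3 and 4. The dim Fzd7 probe set, with signals of 6.0 to 15.3 on all 10 arrays, differed by -0.02 ± 0.13 over all arrays and by -0.06 ± 0.15 without both labelled replicate 1.

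Lrp5 and Lrp6 encode the paired co-receptors that bind Axin once Wnt is bound. Lrp6 had a signal of 1140.1, 748, 739, 697 and 743 in KO and 851, 761, 814, 889 and 724 in WT on its brighter probe set. KO replicate 1 stood far above the other 4 KO arrays, which lay at or below the lower part of the WT range. The difference of Lrp6 was -0.01 ± 0.13 (95% interval -0.29 to 0.27, adjusted p = 0.992), and without both arrays labelled replicate 1 it was -0.11 ± 0.10. On the other Lrp6 probe set the signal was 283, 224, 217, 207 and 124 in KO, against 199, 281, 172, 292 and 243 in WT. That set differed by -0.15 ± 0.17 (adjusted p = 0.866), with KO replicate 5 the lowest array of all. Its difference was -0.01 without KO replicate 5 and -0.29 ± 0.18 without both arrays labelled replicate 1. Lrp5 was measured by 1 dim probe set only, with signals of 69.0 to 148 in KO and 89.4 to 166 in WT. It differed by -0.18 ± 0.17 (95% interval -0.54 to 0.17, adjusted p = 0.818), and by -0.13 ± 0.17 without both arrays labelled replicate 1. Lrp5 lies on chromosome 19, as do Klf9 and Tcf7l2.

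Apc encodes the large scaffold of the destruction complex and a tumour suppressor of the intestine. Its bright probe set read 352, 516, 578, 587 and 539 in KO and 529.8, 545, 571, 528 and 588 in WT. Apart from KO replicate 1, which was low, KO and WT arrays shared 1 narrow range. Apc differed by -0.11 ± 0.13 (95% interval -0.38 to 0.16, adjusted p = 0.860) over all arrays and by -0.01 ± 0.10 (95% interval -0.23 to 0.21) without both arrays labelled replicate 1. The dim pair of Apc probe sets, at 19.0 to 143 and 25.0 to 56.5 in KO and at 23.1 to 156 and 32.8 to 77.4 in WT, differed by -0.13 ± 0.30 and -0.17 ± 0.16, and by -0.14 ± 0.30 and -0.08 ± 0.17 without both arrays labelled replicate 1. Across the 10 arrays the bright Apc set and the brighter of the dim pair did not move together (Pearson r = -0.32, permutation p = 0.376; Spearman rho = -0.25, permutation p = 0.493).

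Axin2 encodes a scaffold of the destruction complex that is itself a direct Wnt target and so acts as a feedback inhibitor, and it is widely used as a readout of pathway activity. Its 2 probe sets had the same sign but a different size of difference. On the bright Axin2 set the signal was 770.5, 667, 712, 827 and 749.8 in KO, against 694, 635, 959, 1080.2 and 1075 in WT. The 5 KO arrays held together, while the WT arrays fell into low values on replicates 1 and 2 and high values on replicates 3 to 5, above every KO array. The bright set differed by -0.21 ± 0.15 (95% interval -0.53 to 0.11, exact p = 0.214, adjusted p = 0.743), and by 0.10, -0.39 and -0.49 within wash runs 1, 2 and 3. WT replicates 1 and 2 were washed in run 1. The bright set differed by -0.30 ± 0.16 without both arrays labelled replicate 1 (adjusted p = 0.548).

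On the dim Axin2 probe set the signal was 34.4, 28.8, 93.5, 19.9 and 23.2 in KO, against 217, 96.8, 68.7, 135 and 119.7 in WT. Of the KO arrays 4 lay below all WT arrays, and KO replicate 3 lay above WT replicate 3. The mean was 39.95 ± 30.4 in KO and 128 ± 56.1 in WT (SD, n = 5 arrays each). This set differed by -0.98 ± 0.23 on the log2 scale (95% interval -1.48 to -0.48), 0.51 times the WT level on the scale of signal plus 50, with an exact two-sided permutation p = 0.0159, where 5 against 5 arrays cannot go below 0.00794. Adjusted over all 13585 probe sets its p was 0.436, so it did not pass. Without both arrays labelled replicate 1 it differed by -0.81 ± 0.23 (exact p = 0.0571, adjusted p = 0.331), and within the 3 wash runs by -1.28, -0.57 and -1.21. Its signals lie largely under the filter value of 123.5, and across the arrays it did not follow the bright Axin2 set (Pearson r = 0.20, permutation p = 0.582; Spearman rho = 0.09, permutation p = 0.812).

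Crypt proliferation markers were set beside these Wnt readouts, since Axin2 is a gene of the crypt base. Of the 20 listed, 19 were on the array, 14 with a higher and 5 with a lower mean in KO, and their summed signal was 13900 to 25186 in KO and 15207 to 21232 in WT, with none at 0. Paneth cell markers (3 measured, 2 of them above the signal filter) had a lower mean in KO for 3 of 3. Mmp7, described below as a target gene, is on this list. They summed to 17858 to 23987 in KO and 19081 to 28450 in WT. The part of either marker list in the Axin2 values was not tested.

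The Axin2 promoter is shown because Axin2 is the Wnt target whose probe sets both lay below 0 under every alternative run. The stretch is the 250 bases before the annotated start in RefSeq (build GRCm38.p6, chr11:108920099-108920348, + strand), printed 5′ to 3′, and the capitals mark 3 short motifs searched on both strands: CTTTG, the core of TCF and LEF sites, GGGCGG, the GC box bound by the Kruppel-like and Sp family, and CACCC, another element of that family. Overlapping motifs were each counted.

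Axin2: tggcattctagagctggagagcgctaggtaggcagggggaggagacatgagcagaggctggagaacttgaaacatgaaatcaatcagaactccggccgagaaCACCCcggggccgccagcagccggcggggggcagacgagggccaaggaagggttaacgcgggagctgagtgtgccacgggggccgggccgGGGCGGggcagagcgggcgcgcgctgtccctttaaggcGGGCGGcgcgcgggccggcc

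This window of Axin2 held 0 matches to the TCF core, 2 GC boxes and 1 CACCC box. Of 32841 promoter windows of the same length, 48.6% held a TCF core, 32.7% a GC box and 52.0% a CACCC box, so that such matches are common and describe the sequence only. Of the 10 Wnt members 6 had an entry in the promoter table.

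Ctnnb1 encodes beta-catenin, the transcriptional co-activator of the pathway, which also links cadherins to actin at cell junctions. All 3 of its probe sets are bright, and all 3 had lower means in KO, by -0.14 ± 0.10, -0.24 ± 0.17 and -0.35 ± 0.21 on the log2 scale (adjusted p = 0.762, 0.762 and 0.709). On the brightest (1420811_a_at) the signal was 7791, 8479, 7362, 8672 and 7949 in KO, against 10519.9, 8747, 7728, 8340.5 and 9128 in WT. All 5 KO arrays lay below the WT mean of 8893, and WT replicate 1 was the highest of all.

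The other pair of Ctnnb1 probe sets set both arrays labelled replicate 1 apart from the rest. On 1450008_a_at the signal was 3777, 2157, 2255, 2401 and 2293 in KO and 4331, 2728, 2542, 2846 and 2722 in WT. On 1430533_a_at it was 1724, 675, 1013, 1028 and 765 in KO and 1793, 1275, 1127, 1250.5 and 1029.7 in WT. Replicate 1 was the highest array of its own group on both sets. These 2 sets moved together over the 10 arrays (Pearson r = 0.92, permutation p = 0.0001, adjusted over 16 pairs 0.0016; Spearman rho = 0.96, permutation p = 5e-05), and r was 0.83 without the 2 arrays farthest from the median, which are both arrays labelled replicate 1. The brightest Ctnnb1 set followed neither as closely (Pearson r = 0.55, permutation p = 0.108, Spearman rho = 0.39, permutation p = 0.265 with 1450008_a_at). With 1430533_a_at its Pearson r was 0.345 (permutation p = 0.332). Without the 2 arrays farthest from the median of the brightest set, r was -0.24 with 1450008_a_at and -0.20 with 1430533_a_at. The ratio of the 3′ to the 5′ control probe sets of Gapdh, a sign of how complete the labelled RNA was, was 0.919 on KO replicate 1 and 0.811 on WT replicate 1, and 0.989 to 1.08 on the other KO arrays and 0.938 to 1.05 on the other WT arrays. The same ratio for Actb set KO replicate 1 lowest of the KO arrays (1.072, against 1.138 to 1.248 on the others) but left WT replicate 1, at 1.121, inside the range of the other WT arrays (1.067 to 1.192). The part of either ratio in the Ctnnb1 values was not tested.

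**Figure D3:**
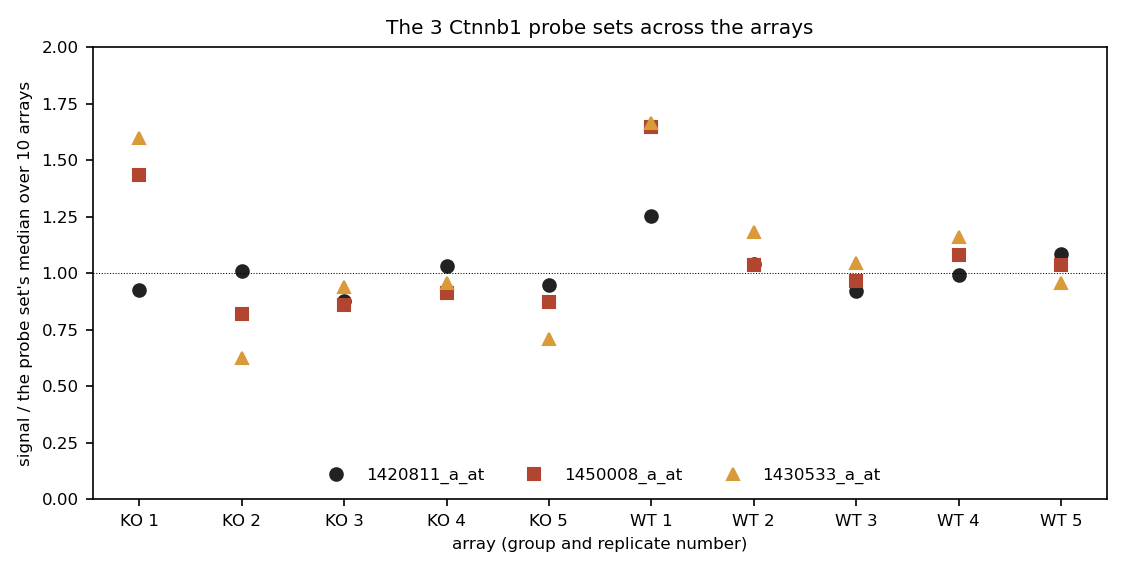
Signal of each of the 3 Ctnnb1 probe sets on the 5 KO arrays (left) and the 5 WT arrays (right), divided by that probe set's median over the 10 arrays. Both arrays labelled replicate 1 stand above the others of their group for 1450008_a_at and 1430533_a_at, while for 1420811_a_at only WT replicate 1 does.

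Without both arrays labelled replicate 1, the KO and WT arrays no longer overlapped on that pair of Ctnnb1 probe sets. The 4 KO arrays then lay at 2157 to 2401 and the 4 WT arrays at 2542 to 2846 on 1450008_a_at, a difference of -0.25 ± 0.09 (95% interval -0.45 to -0.04). On 1430533_a_at they lay at 675 to 1028 in KO and 1029.7 to 1275 in WT, a difference of -0.42 ± 0.14 (95% interval -0.74 to -0.11), with KO replicate 4 just under WT replicate 5. The exact p was 0.0286 for both, the smallest that 4 against 4 arrays allow, and 2.85% of all tested probe sets had groups that did not overlap in this direction (5.66% in either). Neither passed after adjustment (adjusted p = 0.433 and 0.391). The brightest Ctnnb1 set differed by -0.06 ± 0.10 there, with overlapping groups. Within wash runs 1, 2 and 3 the 1450008_a_at set differed by -0.26, -0.21 and -0.24, the 1430533_a_at set by -0.46, -0.21 and -0.41, and the 1420811_a_at set by -0.24, -0.01 and -0.20.

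The Ctnnb1 promoter is shown as that of the member with the most probe sets below 0 in every wash run. It is the 250 bases before the first of its annotated starts in RefSeq (build GRCm38.p6, chr9:120933150-120933399, + strand), with the same motifs in capitals.

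Ctnnb1: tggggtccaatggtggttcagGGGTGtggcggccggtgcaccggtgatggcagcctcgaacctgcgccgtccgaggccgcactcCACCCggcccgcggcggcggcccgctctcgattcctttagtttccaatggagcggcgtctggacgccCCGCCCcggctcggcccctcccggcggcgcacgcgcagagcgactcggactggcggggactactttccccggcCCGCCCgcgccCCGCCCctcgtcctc

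It held 0 matches to the TCF core, 3 GC boxes and 2 CACCC boxes. The window of another annotated Ctnnb1 start held 0 matches to the TCF core, 2 GC boxes and 0 CACCC boxes.

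Tcf7l2 encodes the TCF factor through which beta-catenin acts in the intestinal epithelium, and it is needed to keep the crypts of the small intestine. Of its 4 probe sets, all bright, 3 lay below 0 and 1 was near 0. On 1429428_at the signal was 187, 282, 309.8, 302 and 301 in KO, against 344, 291, 353, 364 and 353 in WT. KO replicate 1 was the lowest of all, and apart from WT replicate 2 every WT array lay above every KO array. That set differed by -0.27 ± 0.13 (95% interval -0.55 to 0.00, exact p = 0.0317, adjusted p = 0.633) and by -0.16 ± 0.11 without both arrays labelled replicate 1 (exact p = 0.114). Within wash runs 1, 2 and 3 it differed by -0.38, -0.20 and -0.20.

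The other Tcf7l2 probe sets did not share this pattern. On 1429427_s_at, whose suffix marks probes that several transcripts share, the signal was 108, 294, 296, 312 and 351 in KO and 278, 321, 381, 189 and 337 in WT. KO replicate 1 and WT replicate 4 were the low arrays, and the difference of -0.17 ± 0.23 turned to 0.06 ± 0.17 without both arrays labelled replicate 1. On 1426639_a_at the signal was 201, 189.5, 175, 103 and 111 in KO, against 70.9, 502, 152, 149 and 602 in WT. WT replicates 2 and 5 were several times as high as the other 3 WT arrays, and its difference of -0.48 ± 0.39 was -0.23 without WT replicate 2 and -0.17 without WT replicate 5, but -0.78 without WT replicate 1, the lowest array. Without both arrays labelled replicate 1 it was -0.86 ± 0.36 (95% interval -1.65 to -0.08, exact p = 0.171, adjusted p = 0.455), which makes it the Tcf7l2 set counted above at an unadjusted p under 0.05. On 1425229_a_at the signal was 146, 179, 183, 167 and 195 in KO and 102, 148, 151, 222 and 286 in WT, with a difference of 0.00 ± 0.18 (95% interval -0.39 to 0.40), and of -0.09 ± 0.17 without both arrays labelled replicate 1. None of the 6 pairs of Tcf7l2 probe sets correlated at an adjusted p under 0.05, the highest being 1429428_at with 1429427_s_at (Pearson r = 0.67, permutation p = 0.0746; Spearman rho = 0.22, permutation p = 0.536), where r fell to 0.32 without the 2 farthest arrays. Tcf7l2 is spliced into many forms, and the sources used here do not give which form each set reads.

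The Tcf7l2 promoter is shown because Tcf7l2 is one of the factors that bind the TCF core. The window shown holds matches to all 3 motifs, as does that of Fzd7. It is the 250 bases before the first of its annotated starts in RefSeq (build GRCm38.p6, chr19:55741560-55741809, + strand), with the motifs in capitals as above.

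Tcf7l2: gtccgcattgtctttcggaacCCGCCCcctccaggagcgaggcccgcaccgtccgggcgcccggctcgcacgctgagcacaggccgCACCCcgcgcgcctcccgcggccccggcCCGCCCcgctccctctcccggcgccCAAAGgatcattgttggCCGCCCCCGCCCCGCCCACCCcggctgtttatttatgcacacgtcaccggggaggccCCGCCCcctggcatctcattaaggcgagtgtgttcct

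It held 1 match to the TCF core, 6 GC boxes and 2 CACCC boxes, some of them overlapping. The window of another annotated Tcf7l2 start held 1 match to the TCF core, 0 GC boxes and 1 CACCC box.

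Myc encodes a transcription factor that drives growth of crypt cells, and Cd44 encodes a hyaluronan receptor found on crypt epithelium and on leukocytes, and both are textbook Wnt targets of the intestine. Myc had a signal of 276, 293, 381, 351 and 213 in KO and 279.6, 416, 267, 284 and 342 in WT. The ranges covered each other, with a difference of -0.07 ± 0.15 (95% interval -0.39 to 0.26, adjusted p = 0.942), and of -0.08 ± 0.17 without both arrays labelled replicate 1. Cd44 had 421, 410.1, 483, 329 and 286 on its bright probe set in KO, against 353, 306, 396, 359 and 326 in WT. KO replicates 1 to 3 lay above all WT arrays and KO replicate 5 below them, and Cd44 differed by 0.12 ± 0.13 (95% interval -0.16 to 0.40, adjusted p = 0.858). The dim Cd44 set, at 13.2 to 111 in KO and 23.0 to 80.2 in WT, differed by 0.02 ± 0.23. The bright Cd44 set differed by 0.09 ± 0.15 and the dim one by 0.06 ± 0.26 without both arrays labelled replicate 1. Lymphocyte and leukocyte markers, whose cells also carry Cd44, had a lower mean in KO for 12 of 12 measured genes, with a summed signal of 4097 to 12793 in KO and 8834 to 15070 in WT and none at 0, and their part in the Cd44 values was not tested. The 3 Wnt targets Axin2, Myc and Cd44 thus had no shared direction on their brightest probe sets, with differences of -0.21, -0.07 and 0.12.

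Other genes of the pathway were taken from 6 lists written by role, with 107 genes in all, of which 96 were on the array with a symbol of their own and 49 were tested through their brightest probe set. None passed the threshold (lowest adjusted p = 0.634), and none had an unadjusted p under 0.05 in limma, against 7.37% of the 8291 genes tested in this way. Of the 49, 20 lay below 0 and 29 above 0, with a median of 0.03, where all genes had a median of 0.01. Without both arrays labelled replicate 1, 25 of the 49 lay below 0, with a median of -0.02, so that the majority and the sign of the median turned.

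Among ligands and their secretion only 3 of 25 listed genes were bright enough to be tested. Wls, which carries Wnt proteins to the cell surface, differed by -0.19 ± 0.14, and the ligand Wnt7b by 0.10 ± 0.13. Of the remaining Frizzled receptors, Fzd2 differed by 0.11 ± 0.14 and Fzd4 by -0.10 ± 0.13, and by 0.04 ± 0.16 and -0.24 ± 0.12 without both arrays labelled replicate 1. Among inhibitors at the cell surface, 3 of 4 tested lay below 0. The secreted Frizzled-related protein Sfrp1 differed by -0.23 ± 0.21, and Rnf43, a ligase that removes Frizzled from the membrane, by -0.14 ± 0.15. Averaged over its tested probe sets, Wls was at -0.08 (2 of 3 below 0), Fzd2 at 0.01 (1 of 2) and Sfrp1 at -0.05 (1 of 2).

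Genes of the cytoplasmic relay lay above 0 for 10 of 15 tested, while without both arrays labelled replicate 1, 8 of the 15 lay below 0, with a median of -0.02. Csnk1d, a casein kinase, had a median signal of 2827 in KO and 2358 in WT and differed by 0.21 ± 0.10 (exact p = 0.0397, adjusted p = 0.634). Axin1, the constitutive scaffold of the destruction complex, ranged over 414 to 522 in KO and 311 to 425 in WT and differed by 0.22 ± 0.11 (exact p = 0.0317, adjusted p = 0.644), opposite in sign to Axin2. Of the 2 tested Axin1 probe sets 1 lay below 0, and the mean over both was 0.07. Among nuclear factors 9 of 13 lay above 0, with the co-repressor Ctbp2 at 0.20 ± 0.11 and Smarca4, the ATPase of a chromatin remodelling complex, at 0.24 ± 0.15. Averaged over its tested probe sets, Csnk1d was at 0.12 (1 of 5 below 0), Ctbp2 at 0.07 (1 of 2) and Smarca4 at 0.19 (0 of 2).

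Among the further target genes 6 lay below and 6 above 0 (median -0.02), and without both arrays labelled replicate 1, 8 of the 12 lay below 0 (median -0.09). Lgr5, the receptor for R-spondins that marks crypt base stem cells, had a signal of 238 to 392 in KO and 308 to 463 in WT. It differed by -0.29 ± 0.14 (exact p = 0.0635, adjusted p = 0.634), and by -0.44 ± 0.13 without both arrays labelled replicate 1 (adjusted p = 0.331). Mmp7, a protease of Paneth cells, ranged over 2059 to 2742 in KO and 2279.7 to 4350 in WT and differed by -0.31 ± 0.15 (exact p = 0.0873, adjusted p = 0.651). Without both arrays labelled replicate 1, 6 of the 49 genes had an unadjusted p under 0.05, against 9.11% of all genes, and none passed after adjustment. Those below 0 were Lgr5 and Mmp7 (-0.35 ± 0.16), and those above 0 were Fbxw11 (0.35 ± 0.10), Ctbp2 (0.24 ± 0.10), Jun (0.35 ± 0.14) and Plaur (0.34 ± 0.14).

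**Figure D4:**
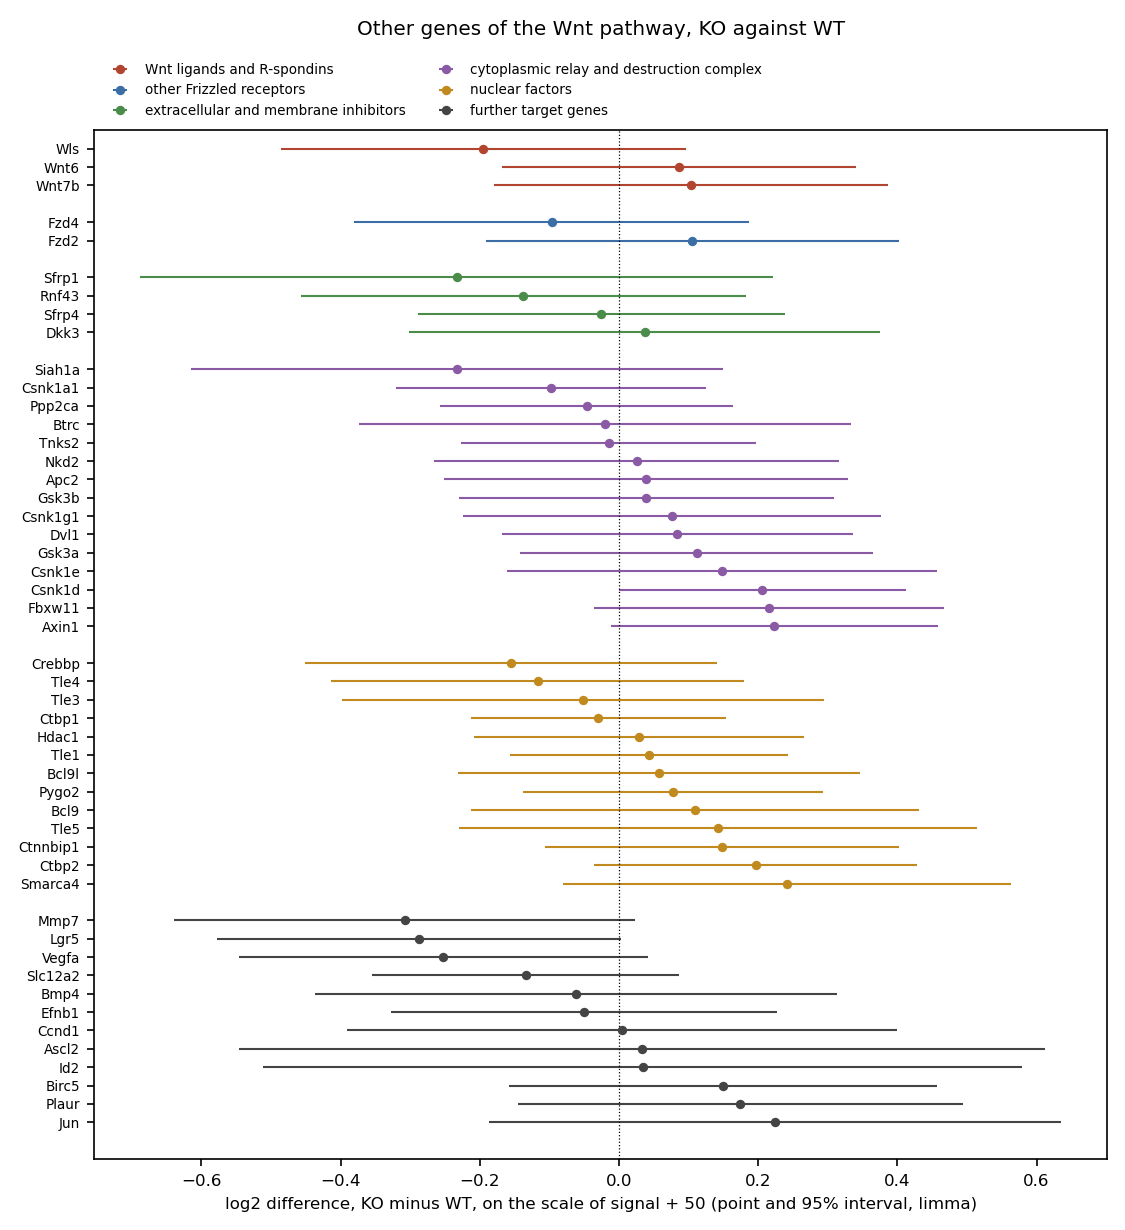
Log2 difference between KO and WT (horizontal axis, on the scale of signal plus 50, with the 95% interval of limma) of the 49 tested genes of the Wnt pathway that are not members, grouped by role and ordered by size within a role. All 49 intervals reach across 0, and those of Csnk1d and Lgr5 end next to it.

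Agreement between probe sets of 1 gene was in general low. Of 16 pairs from the 7 genes with several probe sets, 13 had the same sign of difference, but only 1, the Ctnnb1 pair described above, correlated over the 10 arrays at an adjusted p under 0.05. The remaining 15 pairs had Pearson r between -0.32 and 0.67. For 5 of the 7 genes (Ctnnb1, Apc, Axin2, Fzd7 and Lrp6) every probe set lay below 0, and for Cd44 both lay above 0.

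For each member's brightest probe set, the gene with the most similar profile over the 10 arrays was sought among 8281 genes, as a description. The Cd44 profile was nearest to that of Irf8, a transcription factor of myeloid and B cells (Pearson r = 0.87), and the Lrp6 profile to that of Atoh1, the factor of secretory cell fate (r = 0.90). Axin2 was nearest to Ptprj (r = 0.93), Tcf7l2 to Zfp24 (r = 0.96), Ctnnb1 to Prxl2a (r = 0.97) and Apc to Casc3 (r = 0.96). The nearest profiles to Fzd5, Fzd7, Myc and Lrp5 were those of Prkar1b (r = 0.91), Mpv17 (r = 0.95), C1ql1 (r = 0.89) and Tbc1d14 (r = 0.91). Such values are the highest of 8281 over 10 shared arrays, so no test goes with them. On the Lrp6, Tcf7l2 and Apc sets used, KO replicate 1 stood apart from the other KO arrays. The r values without that array were not worked out.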

How the data were processed

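Jejunal RNA of 10 mice was hybridised to Affymetrix mouse 430A arrays, 5 KO and 5 WT by their titles (1 characteristic of KO replicate 1 names both genotypes). Per the series' design text the authors made the values with MAS 5.0, and the deposited values are linear signal intensities, with a 2% trimmed mean of about 500 on every array. Other deposited files record settings of washing, with no expression value. From these, 4 fluidics modules and the hybridization times were read, and gaps of over 30 minutes gave 3 wash runs. The detection calls played no part.

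Arrays were scaled to a 2% trimmed mean of 500, and log2(signal + 50) was taken, so that the change of dim genes is understated. The 64 control probe sets were left out, and probe sets were kept if their mean over all arrays exceeded the 40th percentile (123.5), the members and Klf9 always being kept (13585 tested). Probe sets with 1 symbol (20380 of 22690) were named from the platform annotation, 20351 of them updated by gene ID through RefSeq, while 691 had several symbols and 1555 none. limma 3.58.1 (R 4.3.3) compared the groups with a mean-variance trend and p-values adjusted by Benjamini-Hochberg over the whole tested table. The step was checked on simulated data. SEs are limma's, and exact permutation tests used all 252 ways to draw 5 of 10 arrays. Correlations used 100000 permutations. The brightest tested probe set stands for a gene.

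The members and lists were chosen with earlier results of these data known. Named genes were all members and Klf9, the pathway genes at an unadjusted p under 0.05 or the 2 of lowest p in each list, and the nearest profile of each member. Alternatives were an offset of 16 or of 100, filtering at the 60th percentile or not at all, quantile normalization, no trend, averaging all probe sets of a gene, blocks for wash run, module and replicate number, each array left out, and both arrays labelled replicate 1 left out. Marker lists not described above are given in the closing section. The number of arrays limits the precision.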

Additional observations from a re-analysis of the deposited data

Results flagged for a closer look

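In 10 of 56 groups of 5 arrays, 1 array of a member or Klf9 probe set stood apart from the other 4 (the gap to its nearest neighbour was over 0.71 of the range on the log2 scale). The cut-off was set to flag about 1 in 20 groups, or 2.8 of 56, by chance. The share of such groups over all tested probe sets was not worked out, so the count is not read as particular to the members. KO replicate 1 was that array for 5 of the 10: its signals were 187 and 108 on the Tcf7l2 sets 1429428_at and 1429427_s_at, 352 on the bright Apc set, 3777 on the Ctnnb1 set 1450008_a_at and 1140.1 on the brighter Lrp6 set. WT replicate 1, with 4331, stood apart on the same Ctnnb1 set. WT replicate 2 was low on Tcf7l2 1429428_at (291), and KO replicate 3 was high on the dim Axin2 set (93.5). On dim Klf9 sets, WT replicate 3 was high at 105 and WT replicate 5 at 121. The KO array that Klf9 sets against its label is thus also the one that stands apart most often among the Wnt members. Whether it stands apart as often over all probe sets was not tested.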

How the results depend on the processing

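No member probe set passed under any alternative run. Over all probe sets, 0 passed under the alternatives that kept all arrays, and 0 to 9 without single arrays (5 without KO replicate 1, 3 without KO replicate 5, 1 without WT replicate 1) or without both arrays labelled replicate 1 (9). There, 6 other pathway genes had an unadjusted p under 0.05, against 0 with all arrays. The count of the 21 member probe sets below 0 ranged from 16 to 19 with arrays left out. Both Axin2 sets, all 3 Ctnnb1 sets and 4 others, of 21, kept their sign throughout.

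Modules 1 and 2 held KO arrays only and module 3 WT arrays only, so genotype and module cannot be told apart outside module 4. With the fluidics module as a block, where 1 KO array and 2 WT arrays of module 4 set the value, 6 member values changed sign: Tcf7l2 1429427_s_at to 0.43, Apc 1420956_at to 0.0052, Fzd5 to -0.14, Fzd7 1450044_at to 0.0284, Cd44 1423760_at to -0.18 and Lrp5 to 0.19, and Klf9 1452723_at changed to -0.0291. With an offset of 100, Tcf7l2 1425229_a_at was -0.0046. With arrays left out, values that crossed 0 ranged from -0.2964 to 0.074 (Tcf7l2 1429427_s_at), -0.14 to 0.15 (1425229_a_at), -0.16 to 0.0058 (Apc 1420956_at), -0.3585 to 0.0845 (Apc 1450056_at), -0.0813 to 0.1562 (Fzd5), -0.063 to 0.0016 (dim Fzd7), -0.1438 to 0.0347 (Myc), -0.13 to 0.20 (dim Cd44), -0.1307 to 0.0374 (Lrp6 1428500_at) and -0.0439 to 0.171 (Klf9 1452723_at). The cause was not tested.

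With the replicate number as a replicate block, 0 probe sets passed and 17 members lay below 0, as without it. Same-numbered arrays deviated together with correlations of -0.12 to 0.28, and arrays of other numbers with -0.25 to 0.27. The ranges nearly coincide, so the numbers are not taken to pair the arrays, though 3 of 5 KO arrays correlated best with their own number. The numbers also follow the wash runs, with replicates 1 and 2 in run 1, 3 and 4 in run 2 and 5 in run 3. Differences within runs are given above mainly for sets that kept their sign. Others changed sign between runs 1, 2 and 3, among them Tcf7l2 1429427_s_at (-0.58, 0.14 and 0.05) and Myc (-0.23, 0.35 and -0.58). So did Fzd5 (-0.19, 0.38 and -0.33), Lrp6 1428500_at (0.19, -0.23 and 0.04) and Cd44 1423760_at (0.30, 0.07 and -0.16). Dim probe sets limit what can be said of Lrp5.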

Other observations

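Marker lists not set beside a result above gave these summed signals. Smooth muscle markers had a higher mean in KO for 12 of 13 genes (36923 to 57443 in KO, 28359 to 46927 in WT), and fibroblast and matrix markers for 8 of 12 (16728 to 24563 in KO, 17653 to 22612 in WT). Adipocyte markers were higher for 5 of 5 (2223 to 4611 in KO, 849 to 4483 in WT), and enteric neuron and glia markers for 7 of 9 (919 to 1444 in KO, 970 to 1251 in WT). Endothelial markers were lower for 9 of 10 (1690 to 2574 in KO, 2183 to 2679 in WT), macrophage and dendritic cell markers for 7 of 9 (3568 to 6017 in KO, 5481 to 6493 in WT) and goblet cell markers for 5 of 6 (46951 to 77231 in KO, 59228 to 86076 in WT). No marker of these lists was at 0 on all arrays, and their part in the Wnt values was not tested.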
